A study of Mus musculus with 3 samples.

Results

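Mitochondrial ribosomal protein genes are the nuclear genes whose products are carried into mitochondria and assembled, with RNAs made there, into the ribosome that translates the few messages of the mitochondrial genome, all of them for subunits of the respiratory chain and the ATP synthase. They were found as the probe rows whose annotated symbol began with Mrpl or Mrps, followed by a number and at most 1 letter. This gave 105 of 38976 probe rows, for 74 of the 78 genes of that form in the mouse RefSeq table. Of the 74 genes, 51 had 1 probe, 15 had 2 and 8 had 3, and all 105 rows had a value on every array. No filter on low values was used, so no member fell out.

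The measurements come from 3 two-channel arrays. On each, channel 1 (Cy5) held RNA of a mammary tumor whose MMTV-PyMT mouse carcinoma cells carried a GATA-3 retrovirus, and channel 2 (Cy3) held RNA of a tumor whose cells carried the empty PMIG vector. In MMTV-PyMT mice a mammary tumor virus promoter drives the polyoma middle T oncogene in mammary epithelium. The vector of both kinds of tumor also carries an IRES-GFP cassette, and both kinds were grown for 6 weeks in wild-type mice, in fat pads cleared of their own epithelium, so that vessels, stroma and immune cells of the host can be in both. The sources used here give no animal ages, no number of clones or animals behind each RNA, and no word on whether arrays shared a control RNA, so p-values measure the spread between these 3 arrays, which may be technical. The arrays are named 1 to 3 in accession order; the titles of arrays 2 and 3 begin alike and that of array 1 differs.

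Every value is a log2 ratio, taken as the GATA-3 tumor over its empty-vector partner after each array's median was set to 0. That direction is likely but not proven, since it rests on the channels in the labels and on the sign of Gata3 itself, and the base of the log is taken as 2. With the opposite sign, higher and lower would trade places throughout. The single Gata3 probe gave 0.74, 0.86 and 0.79 on arrays 1, 2 and 3, a 1.74-fold positive ratio (limma, adjusted p = 0.00319). The dyes were never swapped, so an effect of a probe or dye and a difference between tumors cannot be told apart, and a lower ratio in bulk tumor RNA cannot tell fewer cells of a type from less RNA per cell. Across all 38975 tested rows, array 1 correlated with array 2 at r = 0.77 and with array 3 at r = 0.78, and arrays 2 and 3 at r = 0.94. The values are ratios, so the level of the epithelial markers that define the tissue could not be checked. Of the probes for listed marker genes, 3 were positive and 5 negative past the threshold among 10 for luminal epithelium (median -0.42), 3 and 1 among 7 for adipocytes (median -0.09), 3 and 4 among 9 for macrophages (median -0.40), and 2 and 4 among 7 for skeletal muscle (median -0.30). Their part in the results below was not tested.

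The mitochondrial ribosome has a small subunit, which holds the message and decodes it, and a large subunit, which joins amino acids and has the exit tunnel at the inner membrane. Some of its proteins descend from those of the bacterial ancestor (bacterial-type), and others are found in mitochondria only (mitochondria-specific). In mammals their genes are known to respond to growth and energy demand through factors such as MYC, NRF1 and the ETS factor GABP.

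Most mitochondrial ribosomal protein probes had a negative ratio, with a small median shift. The mean of the 3 arrays was below 0 for 71 of 105 probes and above 0 for 34. The median of the means was -0.24, with a middle range of -0.43 to 0.17 between the quartiles, against a median of -0.02 and quartiles of -0.34 and 0.51 over all probe rows. The members were also below 0 on each array taken alone: 72 of 105 on array 1, 68 on array 2 and 66 on array 3, with medians of -0.31, -0.19 and -0.09. Leaving out array 1 moved the median to -0.13, and leaving out array 3 moved it to -0.28.

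In the limma fit across all rows, 36 of the 105 probes were negative and 15 positive at an adjusted p under 0.05. Of the members 48.6% passed, 34.3% negative and 14.3% positive. The background was high: 57.3% of all rows passed, 25.9% negative and 31.4% positive. Among rows with a gene symbol the shares were 60.2%, 28.5% and 31.7%, and with 1 value a gene 55.8%, 24.1% and 31.7%. Thus the share that passed at all was below that of all rows, while the negative share was above and the positive share below. Counted by gene, 25 genes had only negative probes past the threshold, 11 only positive ones, 4 both, and 34 none. This count by any probe was not made over all genes, so no background stands beside it. Without array 2, 21 probes were negative and 8 positive, without array 3, 19 and 3, and without array 1, 37 and 18. The counts of all rows, 10086 negative and 12255 positive with every array, moved the same way. They were 5991 and 9202 without array 2, 4808 and 6948 without array 3, and 11490 and 13779 without array 1. An exact sign-flip test of a single probe over 3 arrays cannot give a two-sided p below 0.25.

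Large ratios were few on the positive side. A mean of at least 0.5 was seen in 7 member probes, and a mean of -0.5 or less in 23, against 25.6% and 15.0% of all rows. A mean of at least 1 was seen in 3 member probes and one of -1 or less in 1, against 5.53% and 2.72% of all rows. Most probes had 1 sign on all arrays: 57 probes were negative and 27 positive on all 3 arrays, and 21 had mixed signs, none of which passed the threshold. Of all rows, 76.7% had 1 sign on all arrays, 37.9% negative and 38.8% positive. Over the 105 probes, which share the arrays and are not independent, array 1 correlated with array 2 at r = 0.77 and with array 3 at r = 0.74, and arrays 2 and 3 at r = 0.86 (Pearson).

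**Figure D1:**
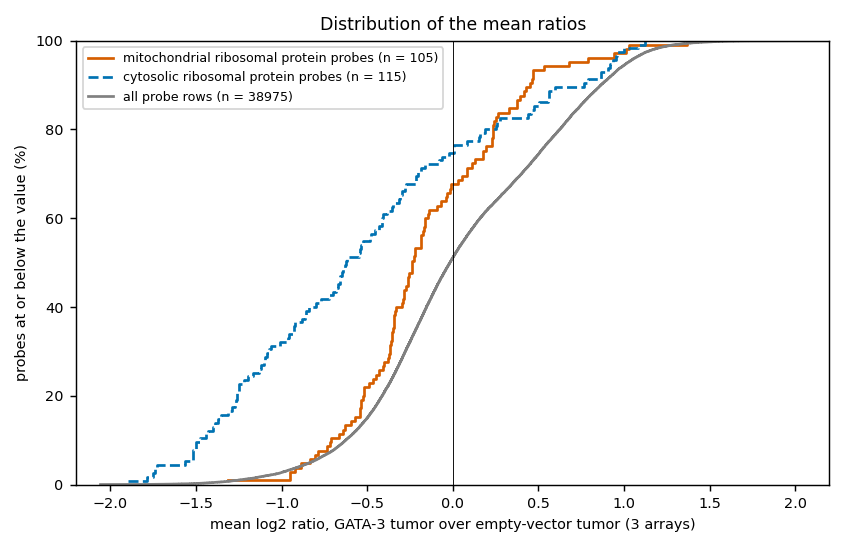
Share of probes (y axis, percent) at or below each mean log2 ratio of the 3 arrays (x axis, GATA-3 tumor over empty-vector tumor) for the 105 mitochondrial ribosomal protein probes, the 115 cytosolic ribosomal protein probes and all 38975 probe rows. The mitochondrial ribosomal protein curve lies left of that of all rows over most of the range, with a median of -0.24 against -0.02, and the cytosolic curve has its median at -0.63.

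Sequence just upstream of the genes is shown for 5 members with large ratios, to let the sites known for this class of gene be seen beside the values. They are not the 5 largest. Mrpl47 (1.01 on 1 probe), Mrpl17 (-0.95) and Mrps14 (0.94) lie further from 0 than Mrpl12 and Mrps17 and are not shown. The same holds for Mrps33 (-0.89), Mrpl4 (-0.84) and Mrps18a (-0.79). It also holds for 1 probe each of Mrps18b (-0.95), Mrpl49 (-0.92), Mrpl33 (-0.80) and Mrpl48 (0.79). Each stretch shown carries a motif match, while that of Mrpl47 carries none, so the 5 do not stand for the members at large. Of the 74 genes, 65 matched a RefSeq promoter (GRCm38.p6). The 100 bases before the annotated start are given 5′ to 3′ on the strand of the gene, and capitals mark a match to one of the 5 motifs searched.
Mrps26, chr2:130563657-130563756, plus strand: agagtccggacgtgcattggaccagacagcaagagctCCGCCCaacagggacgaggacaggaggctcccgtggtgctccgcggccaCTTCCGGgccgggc
Mrpl12, chr11:120484537-120484636, plus strand: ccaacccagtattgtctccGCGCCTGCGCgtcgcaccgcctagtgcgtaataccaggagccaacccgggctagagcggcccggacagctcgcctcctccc
Mrpl32, chr13:14613038-14613137, minus strand: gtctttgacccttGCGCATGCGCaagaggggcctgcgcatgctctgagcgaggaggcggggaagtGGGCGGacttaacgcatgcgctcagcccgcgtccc
Mrpl57, chr14:57826139-57826238, plus strand: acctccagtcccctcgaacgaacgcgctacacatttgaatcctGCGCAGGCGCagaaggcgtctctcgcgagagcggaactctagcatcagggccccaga
Mrps17, chr5:129715397-129715496, plus strand: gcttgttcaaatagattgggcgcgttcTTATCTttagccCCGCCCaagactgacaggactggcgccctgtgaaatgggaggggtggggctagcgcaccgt

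The motifs were searched on both strands of the whole window, from 250 bases before the start to 50 after it, and none of them contains another. The NRF1 motif, the longest runs of capitals above, was in the windows of 12 of 65 member genes, 18.5%, against 5.19% of all 27025 genes with a promoter. The ETS motif (ccggaag) was in 25 of 65, 38.5%, against 9.93%. The YY1 motif (aagatggc) was in 12 of 65, 18.5%, against 3.19%. The Sp1 motif (gggcgg) was in 33 of 65, 50.8%, against 38.2%, and a GATA motif (agataa) in 10 of 65, 15.4%, against 12.7%. In the sequences above, the NRF1 motif stands before Mrpl12, whose ratio was negative. It also stands before Mrpl57 and Mrpl32, whose ratios were positive, though only 1 probe of Mrpl32 passed the threshold. Among the stretches not shown, it stands before Mrpl17 (-0.95), Mrps21 (-0.71), Mrpl30 (-0.41) and Mrpl45 (-0.27), all negative past the threshold. Mrpl9 (-0.03), which has it as well, did not pass. The only GATA motif shown is on the opposite strand of the Mrps17 promoter, beginning 73 bases before the start.

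Large subunit proteins accounted for 66 probes of 48 genes, which include Mrps30 and Mrps18a, since their proteins sit in the large subunit despite their symbols. Of these probes 26 (39.4%) were negative and 9 (13.6%) positive past the threshold, against 25.9% and 31.4% of all rows, and the median was -0.28. Leaving out array 2 gave 15 negative and 5 positive probes. Leaving out array 3 gave 13 and 2, and the counts of all rows fell in both settings. The stalk protein Mrpl12, which recruits translation factors, was negative on both probes. Its first probe gave -0.74, -0.81 and -0.65 on arrays 1 to 3 (mean -0.73 ± 0.08, SD, n = 3 arrays; limma, adjusted p = 0.00331), and its second -0.70, -0.86 and -0.59 (mean -0.72 ± 0.14; limma, adjusted p = 0.00385). These ratios are a 1.66-fold and a 1.64-fold lower signal in GATA-3 tumors, and all 6 values lie below -0.5.

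Mrpl17 and Mrpl4, relatives of bacterial ribosomal proteins, each rested on 1 probe. Mrpl17 gave -0.90, -1.22 and -0.72, a 1.93-fold lower signal in GATA-3 tumors (limma, adjusted p = 0.00364). Mrpl4, which lines the exit tunnel, gave -0.75, -0.96 and -0.80 (limma, adjusted p = 0.00319). Mrps18a, 1 of 3 mammalian relatives of bacterial protein S18, gave -0.74, -0.95 and -0.67, a 1.72-fold lower signal (limma, adjusted p = 0.00348). In each of these genes the arrays gave the same sign, array 2 was the lowest, and no array left out ended the call.

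Mrpl33 was negative on both probes, but 1 array weighed on it. The lower probe gave -1.59, -0.41 and -0.41 (mean -0.80 ± 0.68), so that array 1 stood apart from arrays 2 and 3; the other probe gave -0.42, -0.85 and -0.64. Both passed (limma, adjusted p = 0.0453 and 0.00786), and both lost the call without array 3 (adjusted p = 0.0670 and 0.0551). Mrps30 gave -0.66, 0.01 and -0.07 and did not pass (limma, adjusted p = 0.233), array 1 again being the low one.

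Mrpl49 and Mrpl51, of mitochondria-specific large subunit proteins, passed as negative on every probe. The 3 probes of Mrpl49 had means of -0.92, -0.38 and -0.36. The lowest gave -0.77, -1.16 and -0.83 (limma, adjusted p = 0.00334), and the others lost the call without array 2 (adjusted p = 0.119 and 0.0822) and without array 3 (0.217 and 0.0987). The probes of Mrpl51 had means of -0.54 and -0.52 (limma, adjusted p = 0.0125 and 0.0164), and the first of these lost the call without array 2 (0.0546) or array 3 (0.0787).

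The highest value of any member was that of 1 Mrpl32 probe. Mrpl32 is made as a precursor that the mitochondrial m-AAA protease cleaves before the protein joins the large subunit. This probe gave 1.20, 1.64 and 1.26, a 2.58-fold higher signal in GATA-3 tumors (limma, adjusted p = 0.00319), while the gene's other probe gave 0.02, 0.07 and 0.06 (adjusted p = 0.608). Mrpl57, a small mitochondria-specific protein measured by 1 probe, gave 0.69, 1.24 and 1.16, a 2.04-fold higher signal (limma, adjusted p = 0.00375), and kept the call whichever array was left out.

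Other positive large subunit probes were smaller or less even over the arrays. Mrpl21 gave 0.50, 0.46 and 0.44 (limma, adjusted p = 0.00774; 0.0657 without array 3). Of the Mrpl35 probes, 1 gave 0.43, 0.56 and 0.41 (limma, adjusted p = 0.00898; 0.0506 without array 2 and 0.0639 without array 3) and the other had a mean of -0.14 (adjusted p = 0.249). Of the remaining genes with 1 probe, 11 were negative past the threshold, at -0.66 to -0.27 (Mrpl11, Mrpl14, Mrpl15, Mrpl23, Mrpl24, Mrpl27, Mrpl30, Mrpl34, Mrpl42, Mrpl45 and Mrpl53), and Mrpl20 was positive at 0.45; these names were listed after their values were seen. A further 14, at -0.43 to 0.26, did not pass, among them Mrpl58, a peptidyl-tRNA hydrolase that became a ribosomal protein. The threshold ran between Mrpl50, with values of -0.14, -0.58 and -0.33 (adjusted p = 0.0464; 0.215 without array 2 and 0.176 without array 3), and Mrpl52, with values of -1.04, -0.42 and -0.16 (adjusted p = 0.0515).

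**Figure D2:**
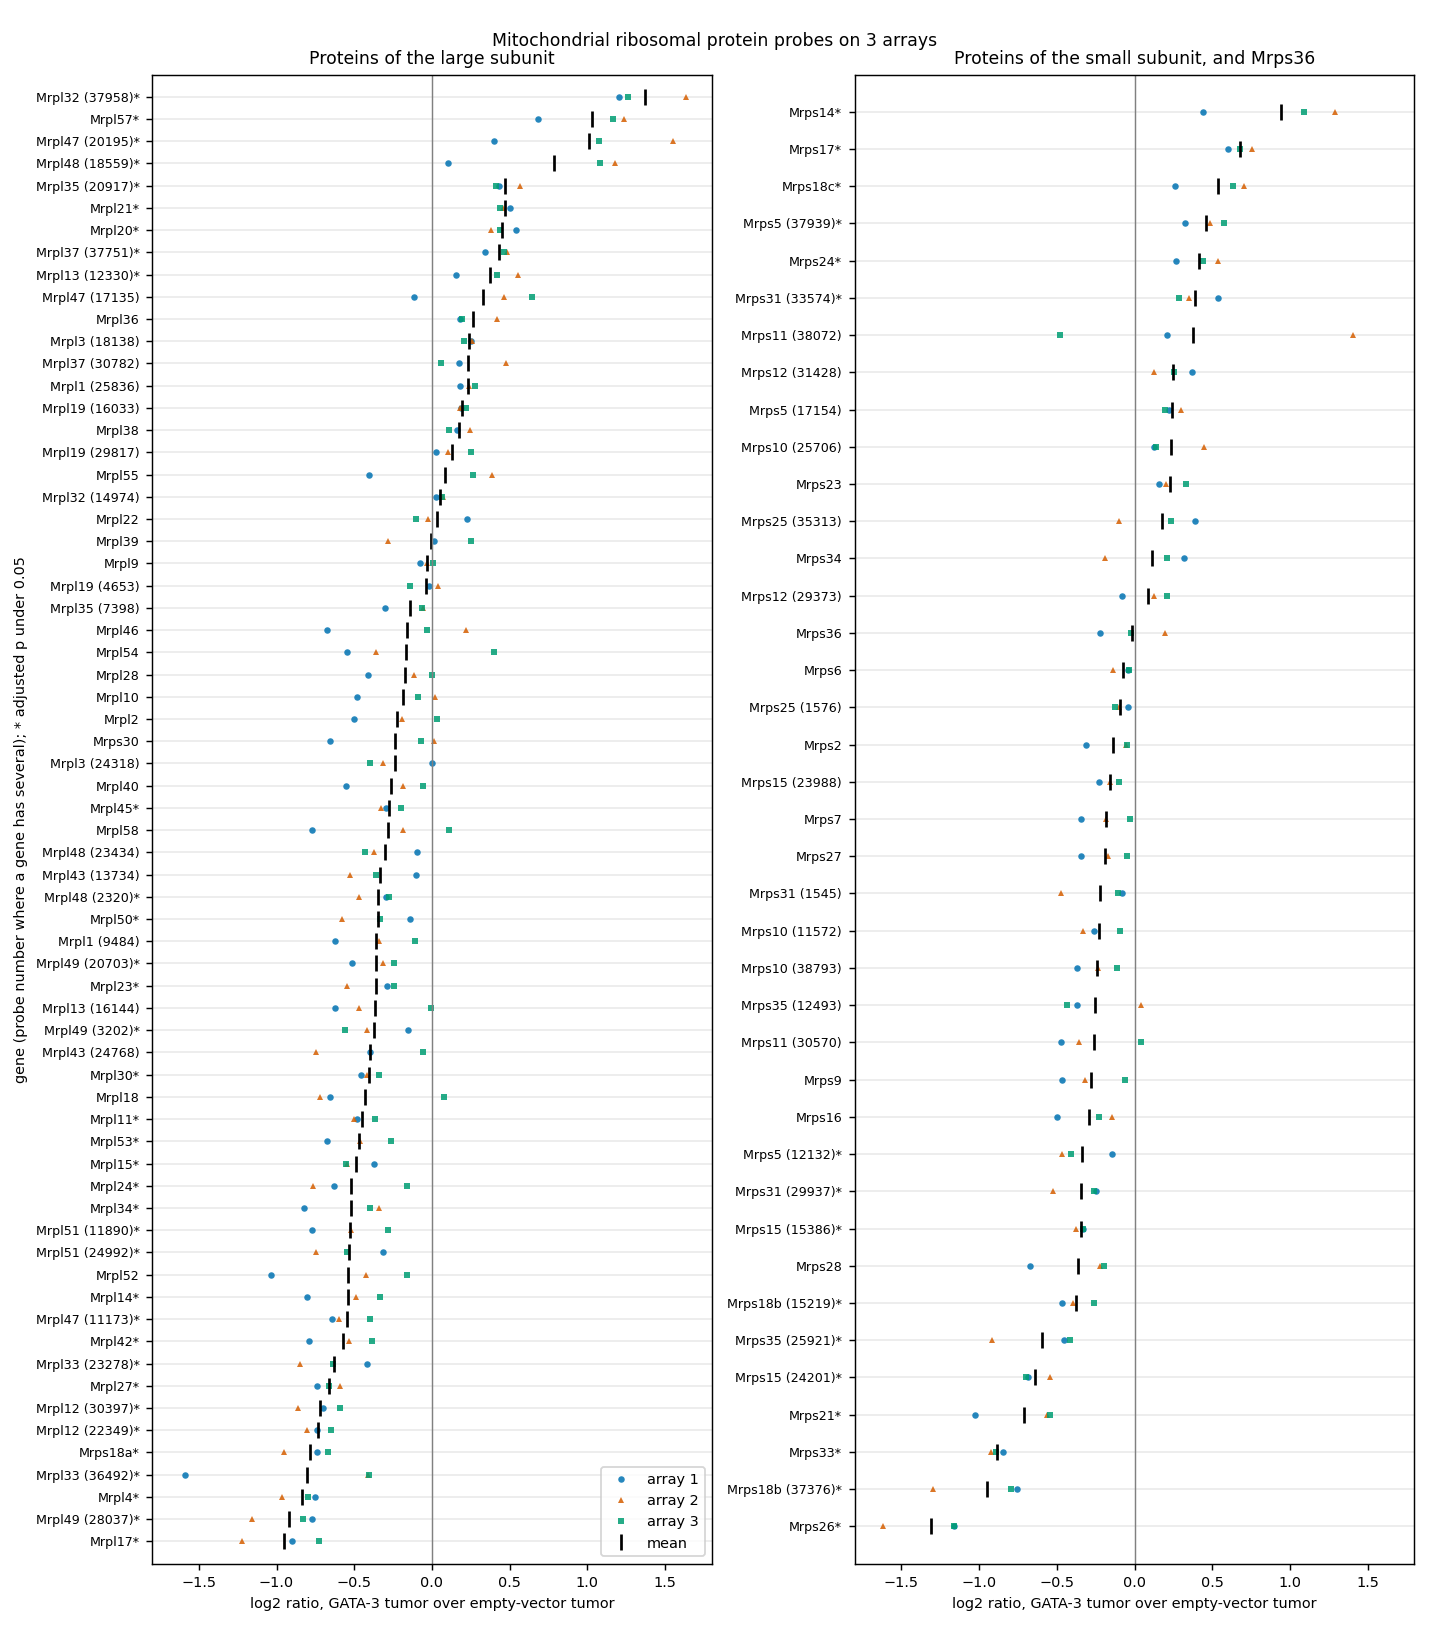
Log2 ratio of GATA-3 tumor over empty-vector tumor (x axis) of each of the 105 probes on arrays 1, 2 and 3 (points), with the mean as a short bar; rows are probes, ordered by mean, with large subunit proteins on the left and small subunit proteins with Mrps36 on the right, and a star marks an adjusted p under 0.05. The means run from -1.31 for Mrps26 to 1.37 for an Mrpl32 probe, and 71 of 105 lie left of 0.

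Small subunit proteins accounted for 38 probes of 25 genes, of which 10 (26.3%) were negative and 6 (15.8%) positive past the threshold, with a median of -0.19. The negative share was near the 25.9% of all rows, and the positive share was below their 31.4%. Leaving out array 2 gave 6 negative and 3 positive probes. Leaving out array 3 gave 6 and 1, and the counts of all rows fell in both settings. The median was -0.12 without array 1, and -0.08 with 1 value a gene, where 6 genes were negative and 4 positive. Mrps26, a mitochondria-specific protein, had the lowest mean of any member. It gave -1.16, -1.62 and -1.16, a 2.48-fold lower signal in GATA-3 tumors (limma, adjusted p = 0.00319). Mrps33, also mitochondria-specific, was even over the arrays, at -0.85, -0.93 and -0.89 (mean -0.89 ± 0.04; limma, adjusted p = 0.00319). Both genes had 1 probe and kept the call whichever array was left out.

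The 3 S18 relatives did not have 1 sign. The probes of Mrps18b, which sits in the small subunit, had means of -0.95 ± 0.30 and -0.37 ± 0.11 (limma, adjusted p = 0.00442 and 0.0194). The second of these lost the call without array 2 (0.0847) or array 3 (0.0832). Mrps18c, which takes the place of the bacterial protein itself, gave 0.26, 0.71 and 0.64 (limma, adjusted p = 0.0151; 0.0619 without array 2 and 0.0987 without array 3). With Mrps18a at -0.79, 2 of the 3 genes were lower and 1 higher in GATA-3 tumors. These genes are related in sequence, and whether their probes tell them apart is not known.

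Of the 6 positive small subunit probes, 5 were of bacterial-type proteins, which held 24 of the 38 small subunit probes. Their positive share, 20.8%, was below the 31.4% of all rows. Mrps14 gave 0.44, 1.29 and 1.09, with array 1 well below the others (mean 0.94 ± 0.44; limma, adjusted p = 0.00946; 0.0559 without array 3). Mrps17 was more even, at 0.60, 0.76 and 0.68, a 1.60-fold higher signal in GATA-3 tumors (limma, adjusted p = 0.00359), and kept the call whichever array was left out. Mrps12, at the decoding centre, had means of 0.08 and 0.25 on its probes, and neither passed (adjusted p = 0.494 and 0.0674).

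All 3 probes of Mrps15 were negative, at -0.64, -0.35 and -0.16, with the first and second past the threshold (limma, adjusted p = 0.00404 and 0.0187). The second lost the call without array 2 (0.0953) or array 3 (0.124). Of the remaining genes with 1 probe, Mrps21 was negative at -0.71 and Mrps24 positive at 0.42, named after their values were seen, and 9 did not pass, at -0.37 to 0.23. Mrps36 gave -0.22, 0.20 and -0.02 and did not pass (adjusted p = 0.913). Its product is now known as a part of the oxoglutarate dehydrogenase complex, so it was placed in neither subunit.

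By descent, the 40 probes of mitochondria-specific proteins had a median of -0.29, with 17 (42.5%) negative and 4 (10%) positive. Mrps18a (-0.79) and Mrps18b (-0.95 and -0.37) were counted here, although they are relatives of bacterial S18. Every probe of theirs was a negative call, so placing them as bacterial-type would bring the negative shares of the classes closer. The 64 probes of bacterial-type proteins had a median of -0.18, with 19 (29.7%) negative and 11 (17.2%) positive, a negative share near the 25.9% of all rows and the 28.5% of rows with a symbol. The lowest share of positive calls, 7.14%, was in the 14 probes of mitochondria-specific small subunit proteins, and the highest, 20.8%, in the 24 probes of bacterial-type small subunit proteins, both below the 31.4% of all rows. Of the 10 largest positive probes 8 were bacterial-type, and of the 10 largest negative ones 5, against 64 of all 105 member probes. The other 5 negative ones include Mrps18a and an Mrps18b probe. Both sets of 10 were picked by the values themselves. No test between subunits or classes was made, and differences between them are given as counts.

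Probes of the same gene differed widely, which bears on every gene measured by 1 probe. Of the 23 genes with more than 1 probe, 8 had all probes below 0, 3 had all above 0 and 12 had probes on both sides. Thus 47.8% had 1 sign, against 50.2% of the 4714 genes of the array with 2 or 3 probes. All probes of each of these 23 genes carried the same RefSeq accession. Where in the transcript each probe lies is not known, and the naming of rows rests on matching probe numbers, which no scanner file was there to test.

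In 5 genes every probe passed with 1 sign, all of them negative: Mrpl12, Mrpl33, Mrpl49, Mrpl51 and Mrps18b. In 4 genes probes passed in both directions. Neither count was made over all genes with 2 or 3 probes, so neither can be read as particular to the members. Mrpl47, at the tunnel exit, had the widest range, with 1 probe at -0.64, -0.60 and -0.40 (limma, adjusted p = 0.00725), another at -0.12, 0.46 and 0.64 (adjusted p = 0.139, and 0.00674 without array 1) and the last at 0.40, 1.55 and 1.08 (limma, adjusted p = 0.0148; 0.0684 without array 3). The values of the lowest and the highest of these probes do not overlap, which follows from their opposite signs on every array. Mrpl48 had 1 probe at 0.10, 1.18 and 1.08 (limma, adjusted p = 0.0343) and others at means of -0.35 and -0.30 (adjusted p = 0.0246 and 0.0564, the one at -0.30 passing at 0.0142 without array 1). The probes at 0.79 and -0.35 lost the call without array 2 (0.0964 and 0.136) or array 3 (0.148 and 0.116).

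Mrps5 and Mrps31 were the other genes with calls both ways. Mrps5 had means of 0.46, 0.24 and -0.34 (limma, adjusted p = 0.0114, 0.0589 and 0.0388), and Mrps31 had means of 0.39, -0.22 and -0.35 (limma, adjusted p = 0.0196, 0.150 and 0.0332). Without array 3 none of the 4 calls held (adjusted p from 0.0841 to 0.206), and without array 2 only that of Mrps5 at 0.46 did. The least even member was an Mrps11 probe at 0.21, 1.40 and -0.48 (mean 0.38 ± 0.95; adjusted p = 0.390), whose mean turned to -0.14 without array 2. The start of Mrps11 lies head to head with that of Mrpl46 on chromosome 7, where their 100-base upstream stretches overlap by 41 bases. The other Mrps11 probe had a mean of -0.26 and the Mrpl46 probe one of -0.16, and neither passed (adjusted p = 0.131 and 0.476).

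The other genes with several probes passed on 1 probe or on none. Mrps35 had means of -0.60 (limma, adjusted p = 0.0141) and -0.25, and Mrpl37 had means of 0.43 (limma, adjusted p = 0.0112) and 0.23. Mrpl13 had means of 0.37 (limma, adjusted p = 0.0344) and -0.37 (0.0750). The calls of Mrpl37 and Mrpl13 were lost without array 2 (0.0595 and 0.158) or array 3 (0.0949 and 0.171). No probe of Mrpl1, Mrpl3, Mrpl19, Mrpl43, Mrps10 or Mrps25 passed, and their means ran from -0.40 to 0.24. Without array 1, a probe of Mrpl3 (adjusted p = 0.0214) and a probe of Mrpl43 (0.0126), both negative, did pass.

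**Figure D3:**
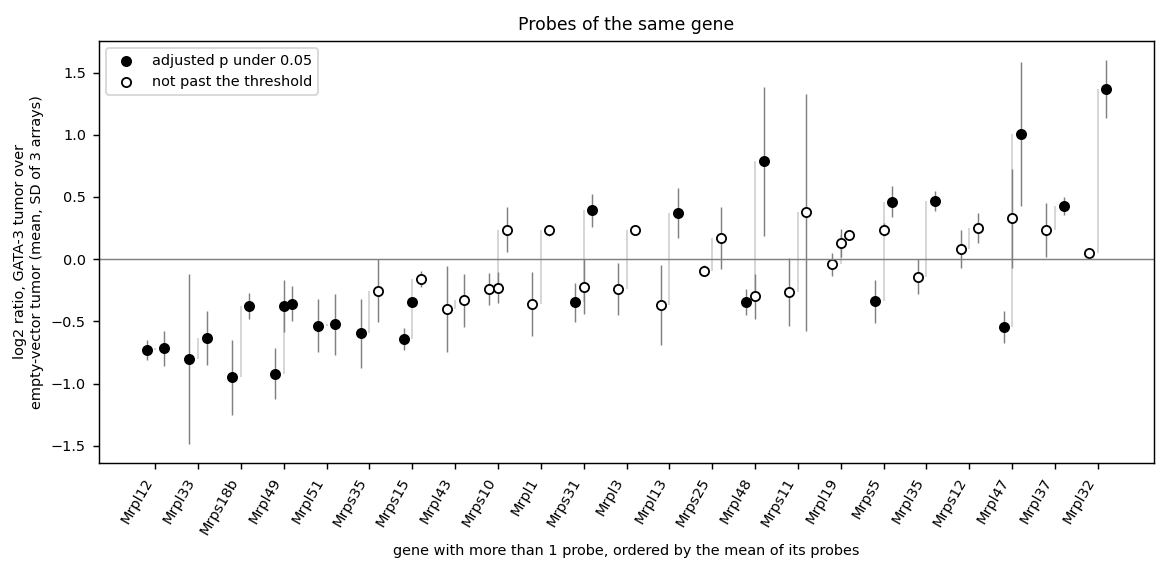
Mean log2 ratio of GATA-3 tumor over empty-vector tumor with its SD over 3 arrays (y axis) for each probe of the 23 genes with more than 1 probe (x axis, ordered by the mean of the gene's probes); filled points have an adjusted p under 0.05, and the pale line spans the gene's means. In 12 genes the probes lie on both sides of 0, and the widest range, 1.55, is that of Mrpl47.

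Further mitochondrial ribosomal proteins carry symbols of another form. Of 5 such genes listed, 4 had probes, 6 in all, of which 5 were negative and 1 positive past the threshold (83.3% and 16.7%, against 25.9% and 31.4% of all rows; median -0.61). Dap3, a GTP-binding protein of the small subunit first described in cell death, was negative on all 3 probes. They gave -0.54, -0.66 and -0.59; -1.08, -0.95 and -0.59; and -0.70, -0.79 and -0.73 (limma, adjusted p = 0.00436, 0.00420 and 0.00321). The RNA-binding Ptcd3 had a mean of -0.53 ± 0.14 (limma, adjusted p = 0.00798; 0.0681 without array 3) and Gadd45gip1, also known as CRIF1, of the tunnel exit, one of -0.61 ± 0.09 (0.00454). Chchd1 was positive at 0.32 ± 0.02 (limma, adjusted p = 0.0243; 0.111 without array 2 and 0.141 without array 3).

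Genes that act with the mitochondrial ribosome did not share 1 direction. Among 16 probes of translation factors 7 (43.8%) were negative and 3 (18.8%) positive, against 25.9% and 31.4% of all rows (median -0.22). The initiation factor Mtif3 was negative on both probes, at -0.55 and -0.46 (limma, adjusted p = 0.0101 and 0.00879; the second 0.0629 without array 3). The recycling factor Gfm2 had means of -0.43 (limma, adjusted p = 0.0119; 0.0545 without array 2 and 0.0681 without array 3) and 0.03 (0.826). The release factor gene Mtrf1 had probes at -1.15 and 1.08 (limma, adjusted p = 0.00371 and 0.00667), and its relative Mtrf1l was at 1.21 (0.00359). Among 17 probes of mitochondrial transcription and RNA handling 7 (41.2%) were negative and 3 (17.6%) positive (median -0.24), with the termination factor Mterf1a at -0.98 ± 0.24 (limma, adjusted p = 0.00338) and the mRNA-stabilising Lrpprc positive on both probes, at 0.69 and 0.76 (0.00925 and 0.0292; the second 0.0765 without array 2 and 0.118 without array 3). Elac2 was negative on both probes, at -0.40 and -0.37 (limma, adjusted p = 0.0124 and 0.0487), and Supv3l1 was at -0.39 (0.0129). The calls of Elac2 and Supv3l1 were lost without array 2 or array 3.

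Assembly and rRNA modification factors had 9 negative and 9 positive of 29 probes, 31.0% each, near the 25.9% and 31.4% of all rows (median -0.04). Only the 4 genes of smallest p are named, and the 9 negative probes are of other genes. The 4 were positive: the RNA helicase Dhx30 at 0.86 ± 0.13, Ngrn at 0.83 ± 0.06, Mpv17l2 at 0.70 ± 0.12 and the small subunit rRNA chaperone Eral1 at 0.65 ± 0.02 (limma, adjusted p from 0.00319 to 0.0037). The genes that charge mitochondrial tRNAs had 6 (24.0%) negative and 9 (36.0%) positive of 25 probes, near the 25.9% and 31.4% of all rows (median 0.00). Ears2, the glutamate enzyme, passed both ways, at 0.94 ± 0.12 on 1 probe (limma, adjusted p = 0.00319) and -0.42 ± 0.10 on the other (0.0131; 0.0745 without array 2 and 0.0853 without array 3). Rars2, the arginine enzyme, had probes at 0.69 and 0.52 (limma, adjusted p = 0.00365 and 0.0205; the second 0.0806 without array 2 and 0.116 without array 3) and at -0.16 (0.182). Of the other named genes, the tyrosine enzyme Yars2 was at 0.82 ± 0.13 (limma, adjusted p = 0.00322) and the tryptophan enzyme Wars2 was at 0.80 ± 0.10 on 1 probe (limma, adjusted p = 0.0032) and 0.02 ± 0.35 on the other (0.932).

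Set beside other protein families of the same arrays, the shift of the mitochondrial ribosomal proteins was smaller than that of the cytosolic ones. Of 115 probes of cytosolic ribosomal proteins, which make up the ribosome of the cytoplasm, 67 (58.3%) were negative and 21 (18.3%) positive (median -0.63). Of 155 probes of respiratory chain subunits and assembly factors, with ATP synthase subunits counted among them, 68 (43.9%) were negative and 35 (22.6%) positive (median -0.28). These medians compare with -0.24 for the mitochondrial ribosomal proteins and -0.02 for all rows. They are descriptions from shared arrays, and no test between the families was made.

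**Figure D4:**
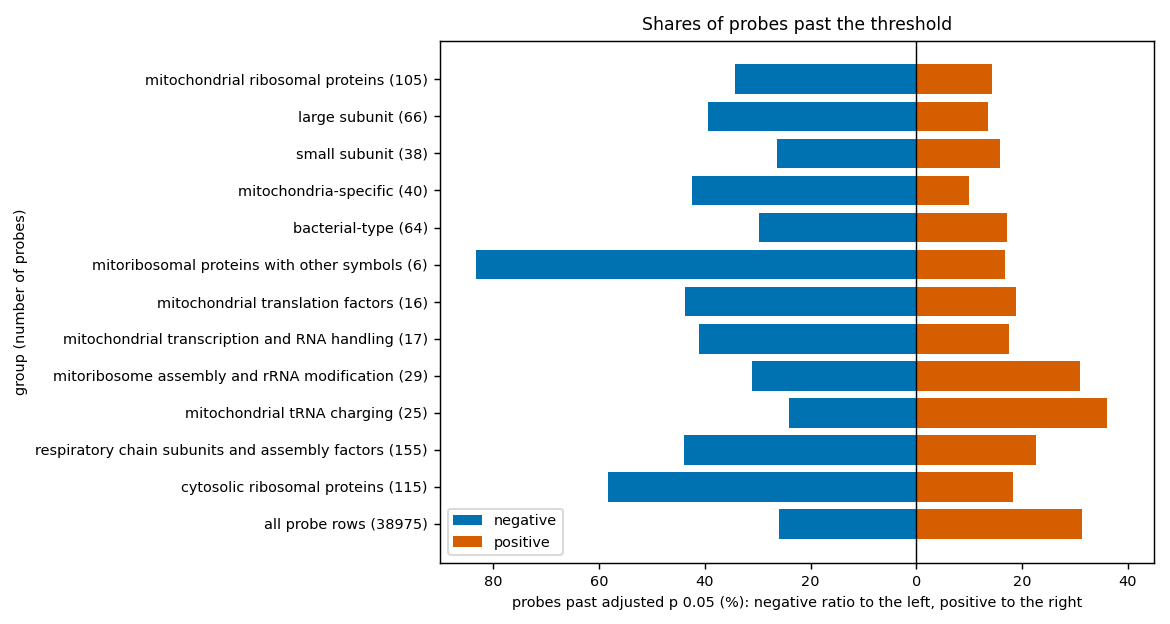
Percent of probes with an adjusted p under 0.05 (x axis; negative ratio of GATA-3 tumor over empty-vector tumor to the left, positive to the right) in the mitochondrial ribosomal proteins, their subunits and classes, related gene lists and all rows, with the number of probes in brackets. The mitochondrial ribosomal proteins had 34.3% negative and 14.3% positive, against 25.9% and 31.4% of all rows. The respiratory chain group includes ATP synthase subunits.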

How the data were processed

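The authors' deposited values, 1 log2 ratio per probe row and array, were used; per the labels channel 1 held the GATA-3 tumor and channel 2 the empty-vector tumor. The sources used here give no scanner, background correction, normalization or log base, and brightness is unknown, so the number of arrays limits the precision. Deposited medians were -0.02, -0.07 and -0.07. Of 38976 rows, 22973 had 1 symbol in the platform annotation, the others are unnamed here, none was named from several, and 1 row with a missing value was left out. Each array was centred on its median, and limma 3.58.1 (R 4.3.3) tested whether each probe's mean was 0 (intercept only, eBayes; Benjamini-Hochberg over 38975 rows, threshold 0.05); the fit was tested on simulated data. Probes were kept apart because those of 1 gene disagree. Named probes were the 10 largest past the threshold each way, all probes of genes with several, Mrps30, Mrps18a, Mrps36, those nearest the threshold, the 3 of largest SD, Gata3 and up to 4 genes of smallest p per other list, of which some are given. Members and lists were chosen with earlier results of these data known. Alternatives covered centring, scaling, gene means, missing values, eBayes, thresholds, title prefix, sign and each array left out.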

Additional observations from a re-analysis of the deposited data

How the results depend on the processing

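The 15 positive and 36 negative member probes moved by less than 1.5 times with uncentred values (15 and 47), scaled arrays (18 and 37), a value on at least 2 arrays (15 and 36), robust eBayes (15 and 36) and an adjusted p under 0.10 (22 and 48). With 1 value a gene they were 9 and 26 of 74 genes, with an absolute mean of at least 0.5 they were 7 and 22, and with the sign turned 36 and 15 by construction. Of all rows, 12255 were positive and 10086 negative in the main fit, and 11619 and 11815 with uncentred values. The counts of all rows were 12667 and 10597 with scaled arrays, and 13782 and 12450 at an adjusted p under 0.10. They were 9841 and 7500 with 1 value a gene, and 9523 and 5586 with the 0.5 limit. The plain one-sample test, which borrows no variance across rows, left 0 and 0 members and 51 positive and 15 negative of all rows. In it 41 of 105 member probes had an unadjusted p under 0.05, a smaller share than the 18016 of 38975 rows. Averaging arrays 2 and 3 to 1 value, chosen after seeing the data, gave 8 and 22 members, against 8675 positive and 5880 negative of all rows. A random block for the title prefix could not be estimated from 3 arrays and was not run. Leaving out 1 array gave 3 to 18 positive and 19 to 37 negative members, against 6948 to 13779 and 4808 to 11490 of all rows; the negative count of all rows was 5586 with an absolute mean of at least 0.5. The members' median, -0.24, ran from -0.28 to -0.13 with 1 array left out, was -0.29 as deposited and -0.19 with 1 value a gene, and turned to 0.24 with the sign. Of the 37 named member probes past the threshold, 16 kept the call in each setting run other than the plain test and the 0.5 limit, and 0 kept it in the plain test. The turned sign was not run for single probes or lists, where it only negates each value.

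Reversals were of values near 0 or of probes with uneven arrays. With 1 array left out, an Mrpl19 probe ran from -0.079 to 0.0097 (without array 3), an Mrps11 probe from -0.14 (without array 2) to 0.81, Mrps36 from -0.12 to 0.088 (without array 1), a Wars2 probe from -0.18 (without array 1) to 0.14 and a Gfm2 probe from -0.064 (without array 2) to 0.14. The median of the tRNA charging list then ran from -0.089 to -0.069, and that of the assembly list was 0.032 without array 1. With uncentred values the other Mrpl32 probe was at -0.0017, the Wars2 probe at -0.038, the Gfm2 probe at -0.024 and the tRNA charging median at -0.053. That median was -0.016 with scaled arrays and -0.077 with arrays 2 and 3 averaged, when the Gfm2 probe was at -0.025; the assembly median was 0.061 with 1 value a gene. The cause of these changes was not tested. No paired analysis was possible because every array is itself a ratio of 2 tumors, and all 3 arrays form 1 group.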
